A study of Mus musculus with 6 samples.

Results

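The genes examined here encode chaperones of the endoplasmic reticulum (ER) and components of the unfolded protein response. They were taken from a list of 37 gene symbols. A member was measured where a probe set of the array was annotated to that symbol and to no other, and where several qualified the one with the highest mean over the 6 arrays was used. This gave 36 of the 37 genes, among 22180 genes tested in all. Ero1l was listed on the array under its current symbol Ero1a. Pdia4, whose probe set also carried the name of a microRNA, was not analysed here.

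The arrays were 3 from SLK wild-type and 3 from SLK knockout cells, numbered 1 to 3 in each genotype. All were untreated, NeuNDL-transformed mouse cells. Both genotypes thus share NeuNDL, which is the receptor tyrosine kinase Neu (ErbB2) in an activated form. SLK is a serine/threonine kinase of the Ste20 family. They were grown in DMEM/F12 with 10% FBS, penicillin, streptomycin, glutamine and a mammary epithelial growth supplement. The design text calls the 3 samples of a genotype independent and names passages 9, 19 and 29, but no label assigns a passage, a clone or a line to an array. If each genotype is 1 line sampled at several passages, the p-values measure the spread between samples of that line and not between lines. The promoter driving NeuNDL and the deleted part of Slk are not known from the labels.

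The ER folds secreted and membrane proteins. BiP (Hspa5), an Hsp70 chaperone, binds unfolded chains with the help of J proteins, Grp94 (Hsp90b1) takes over a subset of clients, calnexin and calreticulin hold glycoproteins through their sugars, and disulfide isomerases set the cysteine bridges. When unfolded protein accumulates, the sensors IRE1 (Ern1), PERK (Eif2ak3) and ATF6 are released: IRE1 splices the Xbp1 messenger, PERK slows translation while favouring that of Atf4, and ATF6 is cleaved into a transcription factor. The mammary epithelium relies on this machinery because it secretes large amounts of milk protein. An expression array reads only the amount of messenger, not Xbp1 splicing, translation or cleavage.

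Slk was lower on every knockout array: 8.21, 8.30 and 8.34 in wild-type cells against 7.14, 7.21 and 7.20 in knockout cells, on the log2 scale of the deposited values (log2 fold change -1.10, SE 0.06; limma, Benjamini-Hochberg adjusted p = 0.0021). Whether its probes lie in the deleted part is not known, so this checks the labels only in part. Array medians lay between 3.93 and 3.97. The epithelial keratins gave 10.3 ± 0.02 for Krt8 and 10.5 ± 0.03 for Krt18 in wild-type cells and 10.5 ± 0.03 and 10.6 ± 0.02 in knockout cells (SD, n = 3 each). Of 11 mammary epithelial markers 2 fell, Krt14 by 0.66 and Cdh1 by 0.43 on the log2 scale (limma adjusted p of 0.00963 and 0.0224), against 0.437% of all genes called. Epcam and the claudin gene Cldn7 were wholly lower in knockout cells without passing this test (log2 fold changes of -0.35 and -0.48). The keratin genes Krt8, Krt18 and Krt19 and the claudin gene Cldn3 were wholly higher without passing it (0.15, 0.14, 0.076 and 0.13). With an intensity trend 2 of the 11 were called higher and 4 lower, against 1.99% of all genes called in either direction. The mean of that list was 7.28 to 7.33 over wild-type and 7.17 over knockout arrays. Plasma cells, in which many ER genes are strongly expressed, were looked for with 9 markers, whose mean was 3.63 to 3.79 over wild-type and 3.78 to 3.84 over knockout arrays. None passed the test, 6 had a higher and 3 a lower mean, and the smallest p belonged to Pou2af1, Irf4 and Mzb1. Their log2 fold changes were 0.16, 0.31 and 0.12, and the immunoglobulin joining chain gene Jchain read 2.12 and 2.03. The 9 leukocyte markers (3.54 to 3.67 and 3.59 to 3.83) and 8 endothelial markers (3.60 to 3.69 and 3.55 to 3.65) held no call. Of the former 7 had a higher and 2 a lower mean, led by Tyrobp (0.29) and Fcer1g (0.26), both wholly higher, and Cd3e (0.12). Of the latter 4 were higher and 4 lower, led by Tek (-0.22) and Kdr (-0.32), both wholly lower, and Pecam1 (0.071). Of 10 fibroblast markers (5.48 to 5.53 and 5.43 to 5.48) Pdgfrb fell. Without passing the test, Dcn (0.43), Postn (0.37) and Pdgfra (0.099) were wholly higher and Col1a1 (-0.33), Col1a2 (-0.19) and Col3a1 (-0.19) wholly lower. An intensity trend called 2 higher and 2 lower, against the same 1.99% of all genes. Of 5 adipocyte markers (3.92 to 3.96 and 3.99 to 4.14) Fabp4 rose (log2 fold change 0.92). In this list 2 means were higher and 3 lower, and the median log2 fold change was -0.078. Cidec (-0.31) was wholly lower without passing the test. The part of other cell types in the members' values was not tested, and fewer cells of a type and less RNA per cell cannot be told apart in bulk RNA.

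No member passed the adjusted test between the genotypes. Before adjustment the intervals of Dnajc3, Calr and Edem1 excluded 0, each toward lower values in knockout cells. By limma with adjustment over all genes, 0 of the 36 members passed the threshold of 0.05, where 0.437% of all genes tested did (97 of 22180). The smallest adjusted p of the members was 0.303, that of Dnajc3. At an unadjusted p under 0.05, 3 members were lower and none was higher. These were Dnajc3, Calr and Edem1. By the same criterion 992 of all 22180 genes were lower (4.47%) and 1275 were higher. With an intensity trend in the variance model, limma called 2 members lower, Dnajc3 and Calr, against 1.99% of all genes called in either direction.

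The member log2 fold changes, knockout minus wild-type, ran from -0.22 (Dnajc3) to 0.17 (Derl3), with a median size of 0.064 against 0.0708 for all genes. The 95% interval of the difference lay within 0.5 log2 units of no change for all 36 members and within 0.25 units for 24 of them. Over all 22180 genes, many of them dimmer, the same held for 19723 and 9541. The bound farthest from 0 was 0.47, for Derl3, whose signal was dim, followed by the lower bound of Ddit3 at -0.46. A change of 1 log2 unit, about the size of the Slk difference, lay outside every member's interval.

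**Figure D1:**
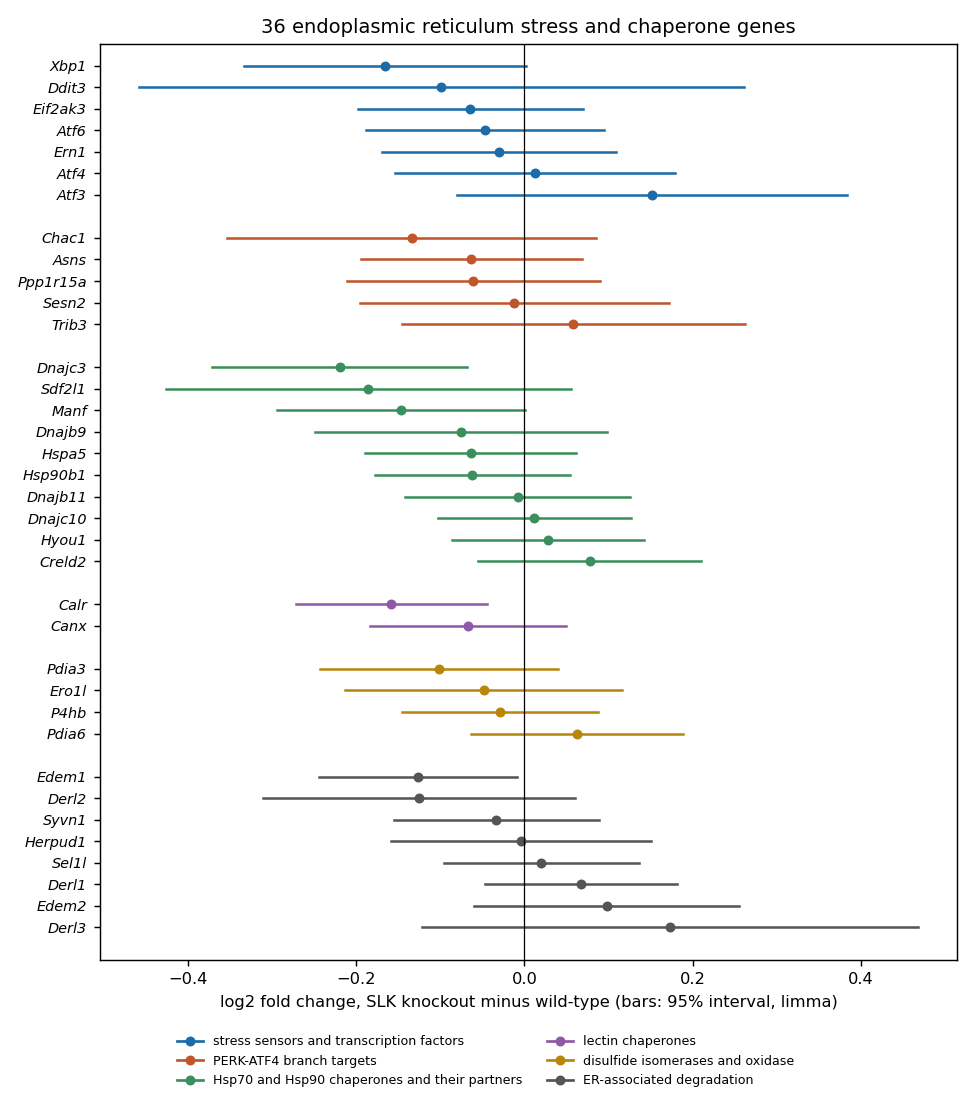
Log2 fold change (knockout minus wild-type, x axis) of each of the 36 measured members, with limma's 95% interval as a bar, in 6 groups by role. No point lies beyond -0.22 or 0.17, and only the intervals of Dnajc3, Calr and Edem1 exclude 0.

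More members had a lower than a higher mean in knockout cells, 25 against 11, while 48.5% of all genes were lower. The median log2 fold change was -0.048 over the members and 0.0038 over all genes. For 7 members every knockout array lay below every wild-type array (Xbp1, Hsp90b1, Dnajc3, Manf, Calr, Canx and Edem1), a separation seen in 8.1% of all genes. For 1 member, Derl1, every knockout array lay above, as for 8.79% of all genes. The members are not independent of each other, and these counts describe 6 arrays, with no test attached. Leaving out wild-type array 1 brought the members' median to -0.031, with 23 members lower. Without knockout array 3 it was -0.033, with 21 lower.

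Some members share a promoter element, which gives the group a feature that the expression values did not define. The ER stress response element (ERSE) consists of CCAAT and CCACG with 9 bases between them, read on either strand, and is bound by NF-Y together with ATF6 or XBP1. It was first defined on chaperone promoters, so its presence in them is background. RefSeq promoters (GRCm38.p6), from 250 bases before to 50 bases after the start, were in hand for 33 of the 37 genes, Pdia4 included, and not for Atf6, Derl1, Hyou1 and Manf. An exact match was found in 9 of the 33 genes and in 39 of all 32851 promoters (0.119%). The matches are printed below in the orientation of the element, with both parts of the element in capitals and 12 bases on either side, so that the invariant ends and the variable spacer can be compared.
Hspa5, chr2:34772013-34772055, plus strand: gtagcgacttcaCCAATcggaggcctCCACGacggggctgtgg
Hsp90b1, chr10:86705626-86705668, minus strand: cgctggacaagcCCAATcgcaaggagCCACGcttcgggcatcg
Hsp90b1, chr10:86705521-86705563, plus strand: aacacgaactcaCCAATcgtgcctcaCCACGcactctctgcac
Calr, chr8:84847063-84847105, plus strand: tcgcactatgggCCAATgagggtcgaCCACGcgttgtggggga
Canx, chr11:50325788-50325830, minus strand: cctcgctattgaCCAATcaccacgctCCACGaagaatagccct
Dnajc3, chr14:118937815-118937857, plus strand: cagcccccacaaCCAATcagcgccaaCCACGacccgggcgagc
Pdia6, chr12:17266479-17266521, plus strand: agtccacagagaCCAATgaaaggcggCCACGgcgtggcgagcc
Creld2, chr15:88819508-88819550, minus strand: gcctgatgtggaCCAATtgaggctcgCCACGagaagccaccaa
Syvn1, chr19:6046520-6046562, plus strand: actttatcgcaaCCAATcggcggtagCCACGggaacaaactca
Derl3, chr10:75893230-75893272, minus strand: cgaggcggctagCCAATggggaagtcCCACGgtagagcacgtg

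In the promoters of Calr, Creld2 and Derl3, and at one of the sites of Hsp90b1, the element ran against the direction of the gene. The one closest to a start was that of Syvn1, 44 to 26 bases before it, and the farthest was in Hsp90b1, 212 to 194 bases before it. Of the 9 members with an ERSE, 6 had a lower and 3 a higher mean under the knockout. The median of their log2 fold changes was -0.062, and the 23 other measured members with a promoter had a median of -0.049 (17 lower). In 4 of the 9, Hsp90b1, Dnajc3, Calr and Canx, every knockout array lay below every wild-type array, as in 8.1% of all genes. Outside the members, 20 measured genes carried an ERSE, of which 8 were lower, with a median of 0.086. None of the 29 measured genes with the element passed the adjusted test.

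The ATF4-C/EBP element TTGCATCA, searched on both strands, was present in 3 member genes and in 0.895% of all promoters. Those of the transcription factor gene Atf3, the glutathione-degrading enzyme gene Chac1 and Herpud1, which organises the ER degradation complex, are given with the 8 matching letters in capitals.
Atf3, chr1:191183424-191183455, minus strand: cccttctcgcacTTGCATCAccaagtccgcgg
Chac1, chr2:119351037-119351068, plus strand: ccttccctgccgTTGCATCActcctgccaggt
Herpud1, chr8:94386305-94386336, plus strand: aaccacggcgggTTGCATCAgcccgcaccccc

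The Herpud1 promoter also held the shorter element ERSE-II, ATTGG and CCACG with 1 base between them, which was found in 0.0365% of all promoters and among the members in Dnajb11 as well. It lay 52 to 42 bases before the start and did not overlap the ATF4-C/EBP element. The sequence TGACGTGG, an ATF6 and XBP1 element present in 0.676% of all promoters, was in none of the 33. Neither gene with an ERSE-II differed between the genotypes beyond its spread: Herpud1 differed by -0.0038 on the log2 scale (95% interval -0.16 to 0.15) and Dnajb11 one of -0.0078 (-0.14 to 0.13).

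Among the 7 sensors and transcription factors none passed the test, 5 had a lower mean and 2 a higher one. Xbp1, the factor made from the IRE1-spliced messenger, read 8.53, 8.37 and 8.35 on wild-type arrays 1 to 3 and 8.29, 8.30 and 8.18 on knockout arrays 1 to 3. The groups did not overlap, yet wild-type arrays 2 and 3 lay within 0.1 units of the 2 higher knockout arrays. The log2 fold change was -0.17 (SE 0.07, limma adjusted p = 0.496), and -0.11 without wild-type array 1. Atf3, a stress-induced repressor, gave 5.55, 5.28 and 5.30 in wild-type and 5.65, 5.50 and 5.42 in knockout cells. Wild-type array 1 sat among the knockout values, and the difference of 0.15 (SE 0.10, adjusted p = 0.663) was within that spread and ran from 0.0895 to 0.24 with single arrays left out. Eif2ak3, the PERK kinase, gave 6.85, 6.93 and 6.91 against 6.80, 6.90 and 6.79, with overlapping groups (-0.06, SE 0.06, adjusted p = 0.760).

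The factors downstream of PERK showed no difference between genotypes beyond their spread. Atf4 read 8.23, 8.34 and 8.14 in wild-type and 8.26, 8.30 and 8.18 in knockout cells. All knockout values fell inside the wild-type range, and the difference of 0.012 had a 95% interval of -0.15 to 0.18. Ddit3, which encodes the pro-apoptotic factor CHOP, read 5.90, 5.39 and 5.34 in wild-type and 5.51, 5.44 and 5.38 in knockout cells. Wild-type array 1 stood above the other 5 arrays, of which the next was knockout array 1. With it the log2 fold change was -0.10 (SE 0.15), and without it 0.081, so that its sign rests on this array. The sensors Ern1 (-0.03) and Atf6 (-0.05) had intervals of -0.17 to 0.11 and -0.19 to 0.09.

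Of the 5 targets of the PERK and ATF4 branch 4 had a lower and 1 a higher mean, and none passed the test. Chac1 gave 5.70, 5.55 and 5.49 in wild-type and 5.59, 5.45 and 5.30 in knockout cells. The groups overlapped, and the difference was -0.13 (SE 0.09, adjusted p = 0.689), or -0.204 without knockout array 1, -0.0738 without wild-type array 1 and -0.0624 without knockout array 3. Asns, asparagine synthetase, gave 8.91, 8.98 and 8.93 against 8.92, 8.91 and 8.81, where knockout array 3 was lowest. The phosphatase subunit gene Ppp1r15a (GADD34), which reverses the PERK block of translation, gave 5.25, 5.18 and 5.36 against 5.24, 5.20 and 5.17. Their log2 fold changes were both -0.06 with adjusted p of 0.759 and 0.800. Trib3, a pseudokinase induced by CHOP, and the stress-responsive Sesn2 had log2 fold changes of 0.06 and -0.01, with intervals of -0.14 to 0.26 and -0.20 to 0.17.

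The 10 genes of the Hsp70 and Hsp90 system included the member with the largest difference. Dnajc3 (P58IPK), a J protein that assists BiP, read 8.97, 9.05 and 9.00 in wild-type and 8.81, 8.86 and 8.69 in knockout cells. All knockout arrays were lower, by 14.1% in the mean, with a log2 fold change of -0.22 (SE 0.06, 95% interval -0.37 to -0.07). It did not pass limma's adjusted test (adjusted p = 0.303), and it did with an intensity trend (adjusted p = 0.0355, or 0.034 with a robust fit). Over all alternatives the adjusted p ran from 0.034 to 0.569. BiP itself, Hspa5, read 8.55, 8.65 and 8.65 in wild-type and 8.55, 8.58 and 8.53 in knockout cells. Wild-type array 1 lay at the knockout level and the groups overlapped, and the difference was -0.06 (SE 0.05, 95% interval -0.19 to 0.06, adjusted p = 0.744).

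Manf, a secreted ER protein that binds BiP, was 5.30, 5.27 and 5.12 in wild-type and 5.10, 5.08 and 5.07 in knockout cells. The knockout arrays were close together and all lower, by -0.15 on the log2 scale (SE 0.06, adjusted p = 0.490). Sdf2l1, a partner of BiP and its J protein Dnajb11, was 7.70, 7.46 and 7.43 against 7.47, 7.35 and 7.21. Wild-type array 1 and knockout array 3 were its extremes, and the log2 fold change of -0.19 (SE 0.10, adjusted p = 0.606) became -0.099 without the former and -0.12 without the latter. Hsp90b1 had log2 values of 11.15, 11.13 and 11.11 in wild-type and 11.08, 11.03 and 11.10 in knockout cells, which separated the groups by a margin smaller than the spread within either (-0.06, adjusted p = 0.730). The remaining members of this group, Dnajb9 (ERdj4), Dnajb11 (ERdj3), Dnajc10 (ERdj5), the exchange factor Hyou1 and Creld2, had log2 fold changes between -0.08 (Dnajb9) and 0.08 (Creld2).

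**Figure D2:**
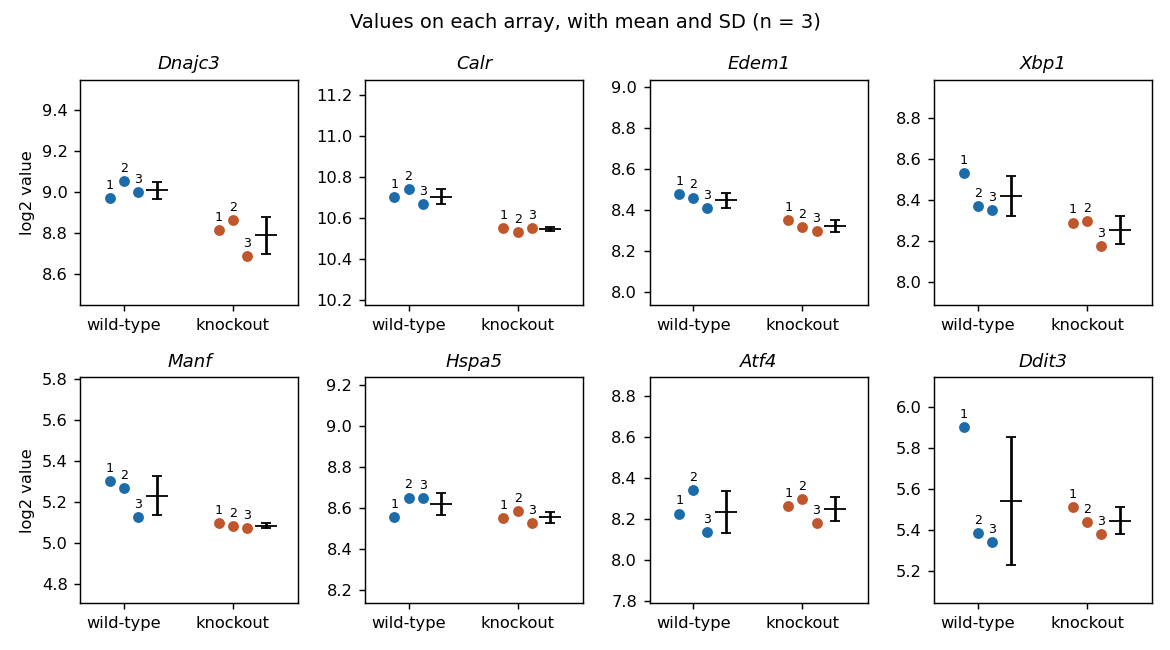
Log2 values (y axis, the same span of units in every panel) of 8 members on each of the 6 arrays, numbered by replicate, with the mean and SD of the 3 arrays of each genotype in black. The knockout points of Dnajc3, Calr, Edem1, Xbp1 and Manf all lie below the wild-type points, those of Hspa5, Atf4 and Ddit3 overlap them, and Ddit3 is set apart by wild-type array 1.

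Both lectin chaperones had lower means in knockout cells. Calr, calreticulin, which also stores calcium in the ER lumen, read 10.70, 10.74 and 10.67 in wild-type and 10.55, 10.53 and 10.55 in knockout cells. The knockout arrays differed from each other by an SD of 0.011 and from the wild-type mean by -0.16 (SE 0.05, 95% interval -0.27 to -0.045), a 10.4% lower signal. The adjusted p was 0.323, and 0.0135 with an intensity trend, with a range over all alternatives from 0.0106 to 0.601. Its membrane-bound relative Canx, calnexin, read 10.91, 10.98 and 10.93 against 10.85, 10.86 and 10.91. Those groups did not overlap, but their gap was only a fraction of the SD of 0.03 within each (log2 fold change -0.07, SE 0.05, adjusted p = 0.705).

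The disulfide isomerases and the oxidase Ero1l, which re-oxidises them, showed no difference beyond their spread. Pdia3 (ERp57), the partner of the lectin chaperones, was 10.49, 10.51 and 10.43 in wild-type and 10.34, 10.32 and 10.46 in knockout cells. Knockout arrays 1 and 2 were below the wild-type range and array 3 was inside it (-0.10, SE 0.06, adjusted p = 0.636). Pdia6 (P5) was 9.16, 9.24 and 9.18 against 9.30, 9.26 and 9.20, a difference in the other direction (0.06, SE 0.05, adjusted p = 0.753). Ero1l was 8.88, 9.02 and 8.91 against 8.95, 8.93 and 8.78, with fully mixed groups (-0.05, adjusted p = 0.861). P4hb, the founding isomerase PDI, had a log2 fold change of -0.03 with an interval of -0.15 to 0.09.

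The 8 genes of ER-associated degradation, which returns misfolded proteins to the cytosol for the proteasome, were split evenly, with 4 lower and 4 higher means. Edem1, a mannosidase-like protein that selects glycoproteins for disposal, read 8.48, 8.46 and 8.41 in wild-type and 8.35, 8.32 and 8.30 in knockout cells. All knockout arrays were lower (-0.13, SE 0.05, 95% interval -0.24 to -0.0089, adjusted p = 0.452). A second, dim Edem1 probe set gave a log2 fold change of -0.03 (SE 0.11). Its relative Edem2 read 7.60, 7.65 and 7.71 against 7.86, 7.69 and 7.70, where knockout array 1 alone lay above the wild-type range (0.10, SE 0.07, adjusted p = 0.683).

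The 3 Derlins, which take part in the export channel, had means on both sides. Derl2 read 6.52, 6.57 and 6.37 in wild-type and 6.46, 6.27 and 6.36 in knockout cells, with overlapping groups (-0.13, SE 0.08, adjusted p = 0.653). Its second, dimmer probe set differed by 0.042, and the mean of both by -0.0417. Derl1 was 9.08 on each wild-type array and 9.17, 9.16 and 9.10 on the knockout arrays, the one member wholly higher in knockout cells (0.07, SE 0.05, adjusted p = 0.701). Derl3, the only member below the median gene in mean signal, read 3.13, 3.45 and 3.39 against 3.47, 3.70 and 3.32 and varied by an SD of 0.17 and 0.19 within the genotypes. The ubiquitin ligase gene Syvn1 (HRD1) and its partner Sel1l had log2 fold changes of -0.03 and 0.02, with intervals of -0.16 to 0.09 and -0.10 to 0.14.

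Over the members as a whole, the median size of the difference between genotypes, 0.064, was of the same order as the variation between arrays of one genotype. Some members, Calr, Edem1 and Dnajc3 among them, differed by more than their SD within either genotype. With single arrays left out, the log2 fold change moved by over 1.5 times for 28 of the 36 members, and by less for Hsp90b1, Dnajc3, Manf, Calr, Canx, Pdia3, Edem1 and Derl1. The SD within a genotype had a median of 0.056 over the members in wild-type and 0.057 in knockout cells, and was highest for Ddit3 (0.31) in the former and Derl3 (0.19) in the latter. Of the 36 members 15 had their highest value on wild-type array 2, 9 on wild-type array 1 and none on knockout array 3, while 13 had their lowest value on knockout array 3. Median deviations of the members from each gene's mean were 0.028, 0.036 and -0.0059 on wild-type arrays 1 to 3 and 0.010, -0.0033 and -0.059 on knockout arrays 1 to 3, so knockout array 3 was farthest from 0. Small nucleolar RNA genes (47 genes named Snord), whose recovery varies with RNA preparation, had medians of 0.16, 0.090 and 0.033 in wild-type and 0.014, -0.13 and -0.15 in knockout cells. They too were lowest on knockout array 3, and their part in the members' shift was not tested.

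**Figure D3:**
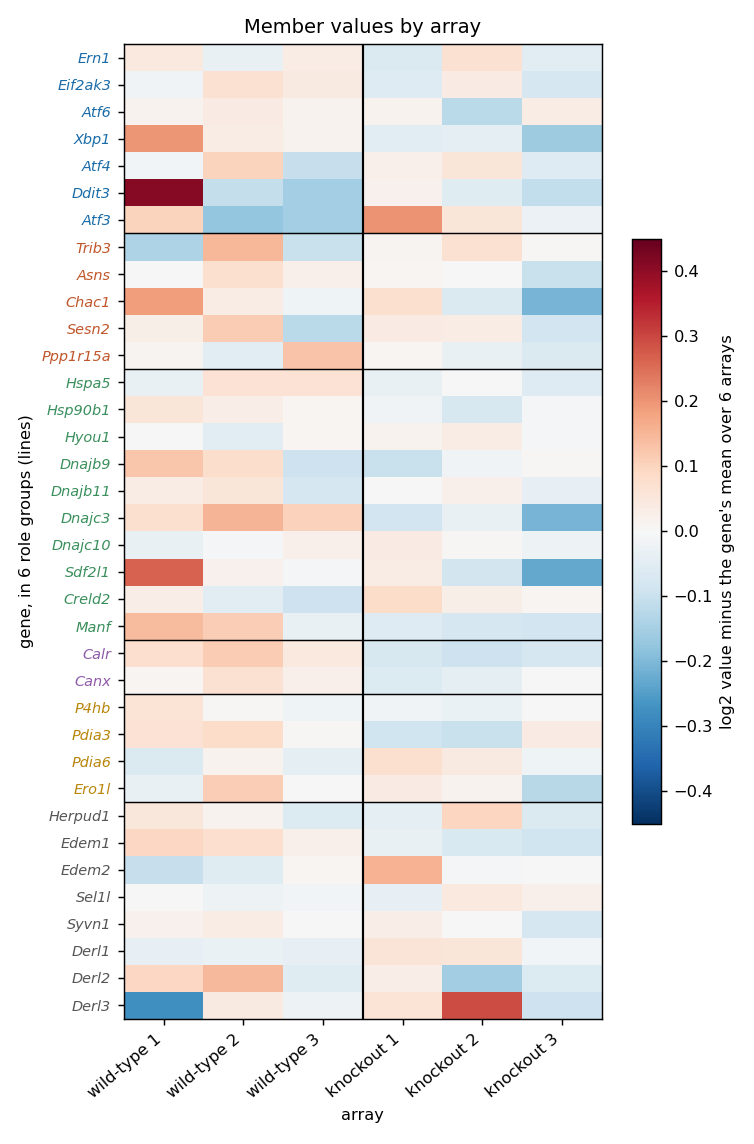
Each cell is the log2 value of a member (rows, in 6 role groups) on an array (columns) minus that gene's mean over the 6 arrays. Calr, Edem1, Dnajc3, Xbp1 and, by a small margin, Hsp90b1 lie above their mean on all wild-type and below it on all knockout arrays. Wild-type array 1 stands out for Ddit3 and Sdf2l1, and 13 of the 36 members are lowest on knockout array 3.

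Genes with neighbouring functions were compared from 6 further lists. Among 30 other ER folding enzymes none passed the test and 15 were lower, with a median log2 fold change of 0.0022. The glycoprotein folding sensor Uggt2 had -0.25 (SE 0.07, adjusted p = 0.303), the chaperone calmegin, Clgn, -0.20 (0.394) and the calcium-binding Rcn1 0.13 (0.415). Of 22 other degradation genes 12 were lower (median -0.0063), with Selenok at -0.24, Marchf6 at 0.13 and the deglycosylase gene Ngly1 at -0.09. Of 23 genes of the translocon, the signal recognition particle system and the signal peptidase, through which proteins enter the ER, 15 were lower (median -0.024), with the signal peptidase subunit Spcs2 at -0.19 (adjusted p = 0.350), Srp19 at 0.11 and Srprb at -0.11. Neither list held a call.

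The stress lists gave the same count of 0 in the adjusted test. Among 22 other stress regulators the median was -0.0094 with 13 lower, and the smallest adjusted p belonged to Nupr1, a chromatin-associated stress protein. Nupr1 read 8.05, 7.97 and 7.98 in wild-type and 7.78, 7.64 and 7.61 in knockout cells, wholly lower by 20.0% (log2 -0.32, SE 0.06, adjusted p = 0.135). Nfe2l2 (NRF2), the regulator of the antioxidant response and a PERK substrate, read 8.87, 8.89 and 8.73 against 9.05, 9.08 and 9.05, wholly higher (0.23, SE 0.06, adjusted p = 0.251). With an intensity trend limma called both, with adjusted p of 0.00741 and 0.0199, where 1.99% of all genes were called. Without the dimmest 50% of genes limma called Nupr1 (adjusted p = 0.0269). Bcl2l11, the pro-apoptotic gene of BIM, had 0.16 (adjusted p = 0.549).

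Among 35 genes of the amino acid and integrated stress response, the programme that ATF4 serves, 18 were lower and the median was -0.00068. Pck2 had a log2 fold change of -0.13, the serine synthesis gene Psph -0.18 and the cystine transporter gene Slc7a11 0.21, with adjusted p of 0.418, 0.427 and 0.429. Of 17 cytosolic heat shock chaperones 7 were lower, with a median of 0.019, and the leading genes were Hspb8 (-0.26, adjusted p = 0.450), Hspa4l (0.10) and Dnajb4 (0.09). Neither list had a member past the threshold.

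**Figure D4:**
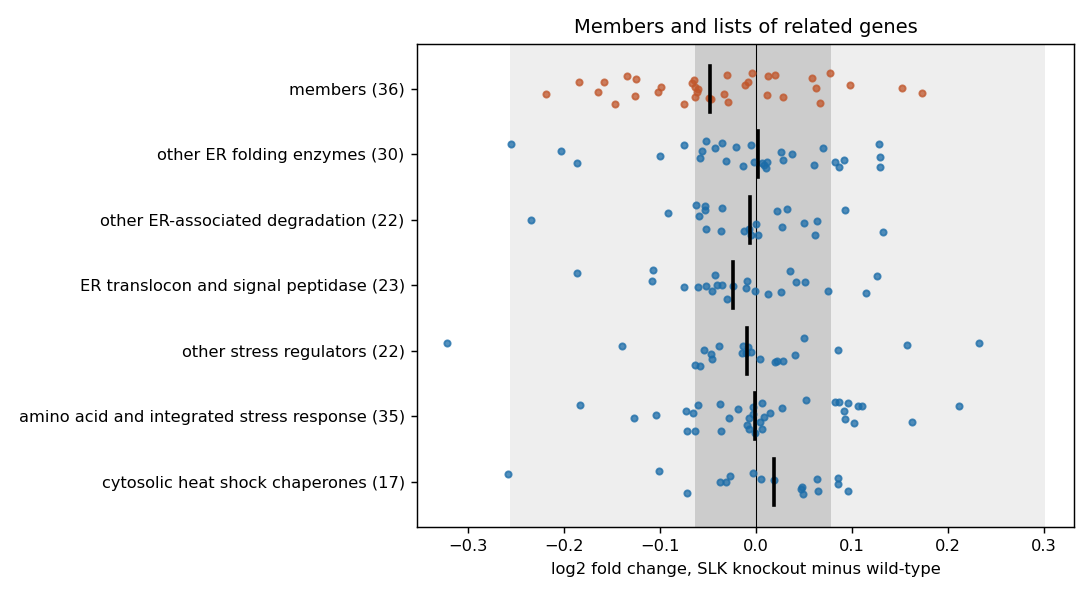
Log2 fold changes (knockout minus wild-type, x axis) of the 36 members (orange) and of 6 lists of related genes (blue), 1 point a gene with vertical scatter for legibility only. Black lines are medians, the dark band spans the 25th to 75th percentile of all 22180 genes (-0.064 to 0.078) and the light band the central 95% (-0.256 to 0.301). Nupr1 (-0.32) and Hspb8 (-0.259) lie outside the light band, and no member does.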

How the data were processed

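The authors deposited 1 table of log2 values for 41345 probe sets on 6 biotin-labelled arrays, made with Affymetrix Expression Console 1.4.1.46 per the submitters' processing notes. Normalization, summarisation and log base: not given in the sources used here. Log2 was inferred from the highest value (12.4), and the nearly equal medians are those of normalized arrays. Such values compress fold changes of dim genes. Names came from the platform annotation, with Ero1l matched through RefSeq (GRCm38.p6): 23521 probe sets had 1 symbol, 1814 several and 16010 none listed.

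Knockout was compared with wild-type by limma 3.58.1 in R 4.3.3 (lmFit, eBayes, two-sided, no covariate, no filter), with Benjamini-Hochberg adjustment over 22180 genes at 0.05. The fit was tested on data simulated for all genes, where most changes of 0.25 and of 0.5 log2 units were missed. Intervals (95%) and SEs are limma's moderated ones. The number of arrays limits the precision.

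Members, lists, tests and alternatives were chosen with earlier results of these data known; ERSE-II was added after the other promoter elements had been set. By the naming rule, values by array cover in each role group the 3 members with the smallest p, and Hspa5, Xbp1, Atf4 and Ddit3. Values by array of Hsp90b1, Derl1, Derl3, Nupr1 and Nfe2l2, and Krt8, Krt18 and Jchain, were added after their values were seen. For other lists the rule names any gene called, otherwise the 3 with the smallest p. Marker genes named beyond this rule were added after their values were seen.

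Protein sequences were not analysed here.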

Additional observations from a re-analysis of the deposited data

How the results depend on the processing

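The count of members called lower went from 0 to 2 (Dnajc3 and Calr) with an intensity trend and with a robust trend, and stayed at 0 in the other 14 of 16 alternatives. No alternative called a member higher. The members' median log2 fold change ran from -0.057 to -0.031 and the number with a lower mean from 21 to 26. Over all genes the calls went from 72 higher and 25 lower to 143 and 63 without the dimmest 30% of genes, 202 and 139 without the dimmest 50%, 265 and 176 with the intensity trend, 264 and 179 with the robust trend, 25 and 4 with every probe set tested by itself, and 5 and 1 with the replicate block; each array left out gave 13 to 24 higher and 2 to 5 lower. The cause of these changes in count was not tested. Some of the alternatives also had fewer samples or another number of tests. Deviations from the group means of same-numbered arrays correlated at 0.04, 0.02 and -0.07 over genes, and those of other-numbered arrays at -0.12 to 0.11. With 3 arrays a genotype these values cannot show whether equal numbers share a passage. The main fit did not take the numbers as pairs. With the replicate block Dnajc3 had adjusted p = 0.416 and Calr 0.490, and no member was called. Quantile normalization turned the sign of Sesn2 (0.0101), Dnajb11 (0.00907) and Herpud1 (0.014). With arrays left out in turn, signs turned within these ranges: Herpud1 -0.0539 to 0.0274, Dnajb11 -0.0473 to 0.0167, Atf4 -0.0371 to 0.0658, Sesn2 -0.0762 to 0.0425, Dnajc10 -0.00267 to 0.0267, Atf6 -0.0758 to 0.00251, Ddit3 -0.2 to 0.0811 and Ero1l -0.0789 to 0.0025. Slk stayed past the threshold throughout (log2 -1.14 to -1.07). The table holds no detection calls, so how far dim probe sets such as that of Derl3 stand above background is unknown.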
